A study of Mus musculus with 2 samples.

Results

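The genes described here encode RNA polymerase II, Mediator, TFIID with the other TBP-associated factors (TAFs), and the remaining general transcription factors. They were chosen by name alone: protein-coding genes whose symbol begins with Polr2 and a letter, Med and a digit, Taf and a digit, or Gtf2, together with Tbp and Ccnc. The rule found 84 genes among 21461 nuclear protein-coding genes and 43346 Ensembl gene rows. Of these, 13 belong to RNA polymerase II, 31 to Mediator, 24 to TFIID and the TAFs, and 16 to the general factors. A pseudogene, Polr2k-ps, and an antisense gene, Med9os, met the pattern of letters but are not protein-coding and were left out.

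PolyA-selected RNA was measured by paired-end sequencing in 2 libraries of the mouse line G1E-ER4, both after 14 h in 10 nM 17beta-estradiol. G1E is an immortalised erythroid progenitor line without functional GATA1. ER4 cells carry GATA1 fused to the hormone-binding part of the estrogen receptor, so that the hormone switches GATA1 on and the cells mature along the red cell lineage. The libraries are numbered biological replicates 1 and 2, but both point to a single sample record, and their spread may therefore be technical only. Both come from 1 immortalised line, and no library of cells without estradiol was analysed here, so nothing below compares induced with uninduced cells.

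RNA polymerase II transcribes every protein-coding gene. At a promoter it assembles with TFIIA, TFIIB, TFIID, TFIIE, TFIIF and TFIIH. TFIID, made of the TATA-binding protein TBP and TAFs, recognises the core promoter. Mediator joins transcription factors bound at enhancers to the polymerase through its head, middle and tail, while a separable kinase module restrains or tunes that contact. MED1 in the middle module is known as a contact of GATA1 in erythroid cells.

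The libraries held 38395481 estimated fragments in replicate 1 and 60097379 in replicate 2. All 8 erythroid markers reached 1 TPM (a transcript level corrected for length and library total) in both libraries, with summed levels of 32922.5 and 84246.7 TPM. They include Gata1, at 1132 and 2656 TPM, and fragments of the introduced GATA1 fusion were not told apart from it. The defining granulocyte genes Elane and Ctsg and the macrophage gene Lyz2 had 0 counts, and 2 of 8 markers of that list (Spi1 and Cd68) reached 1 TPM. Megakaryocyte markers reached 1 TPM in 4 of 6 cases, with sums of 76.5 and 80.0 TPM. Gp1ba was highest, at 47.7 and 56.8 TPM, followed by Gp5 at 21.1 and 14.0 TPM, and Ppbp was at 0. None of 5 lymphoid and none of 6 fibroblast and endothelial markers reached 1 TPM in both libraries.

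Most of the machinery was present at moderate levels, but individual subunits of the same complex lay far apart. Of the 84 genes, 70 reached 1 TPM in both libraries, where 37.6% of all nuclear protein-coding genes did so. Levels of at least 50 TPM in each library were seen for 18 genes, against a background of 9.05%. Another 4 genes stayed under 0.1 TPM in both libraries, where the background was 52.4%, and 10 lay between. The median gene stood at 15.4 TPM in replicate 1 and 20.3 TPM in replicate 2. The median of mean levels was 19.3 TPM, against 20.3 TPM over the 8062 protein-coding genes that reached 1 TPM in both libraries. By complex, the median of mean levels was 59.5 TPM for RNA polymerase II, 22.1 for Mediator, 15.5 for TFIID and the TAFs and 9.11 for the general factors. For the 13 polymerase genes, the single libraries had medians of 32.8 (replicate 1) and 53.1 TPM (replicate 2), both below the median of means. Without Polr2m, which is not a core subunit, the median of means was 42.0 TPM over 12 subunits. Over the 7 subunits not shared with polymerases I and III it was 24.5 TPM. These medians are descriptions of 2 libraries, and the complexes were not tested against each other. Limited to transcripts annotated as protein-coding, the median over the 84 genes was 11.0 TPM and that of Mediator 10.1 TPM.

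**Figure D1:**
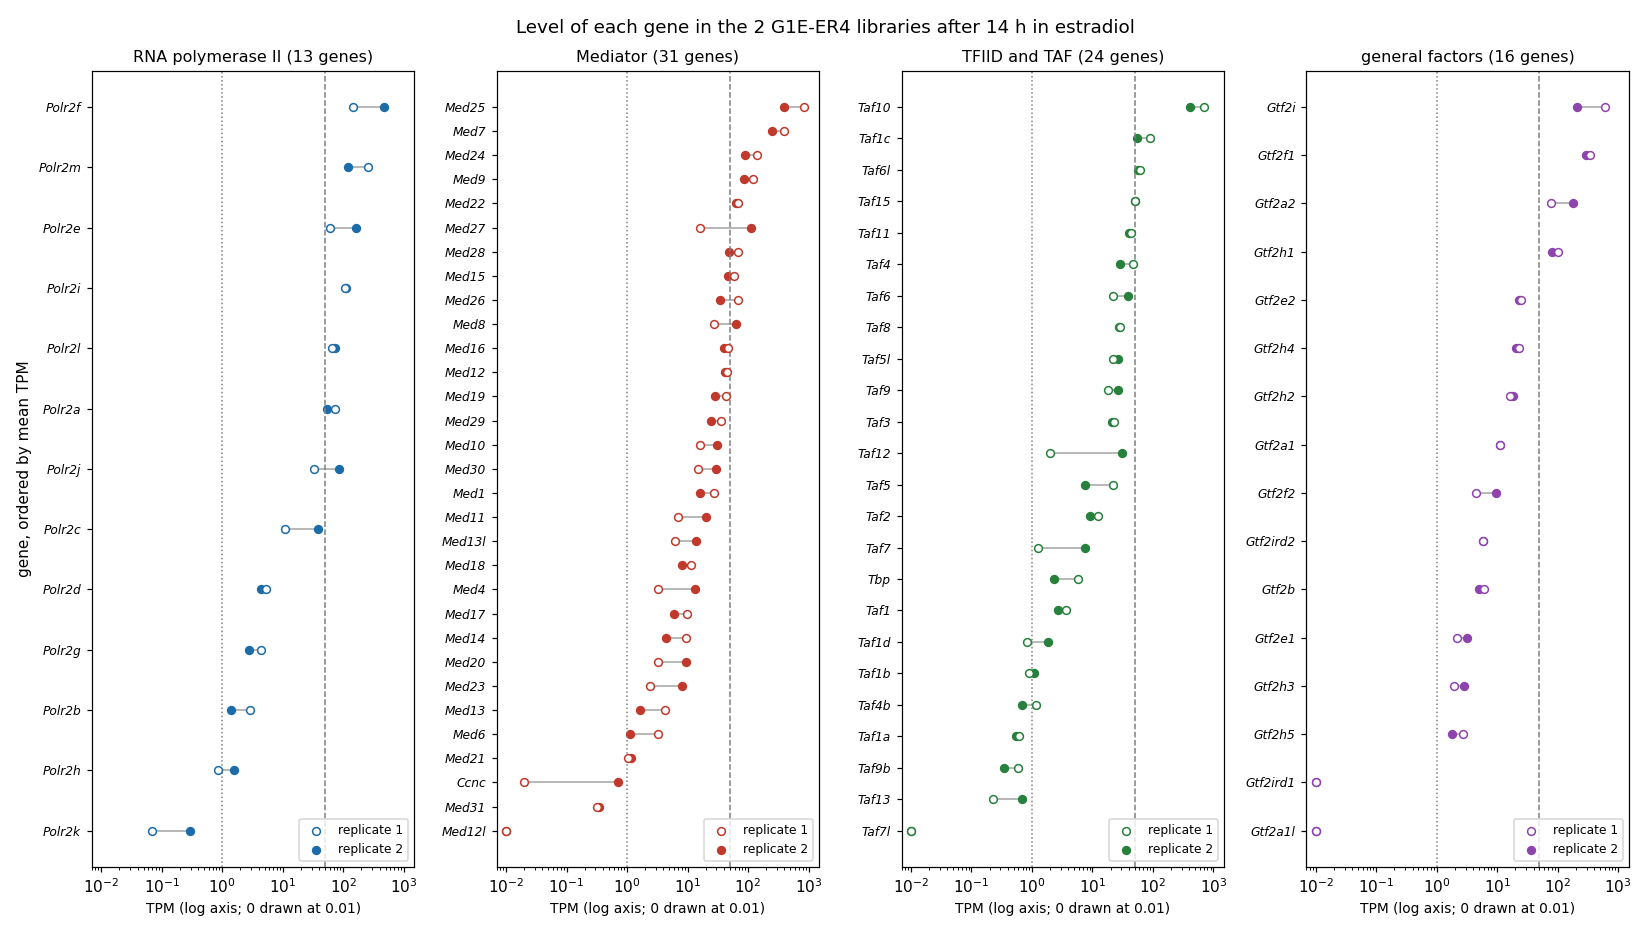
Each row is a gene and the horizontal axis is its level in TPM on a log scale, with 0 drawn at 0.01. Open circles are replicate 1, filled circles replicate 2, and the dotted and dashed lines mark 1 and 50 TPM. Within every complex the genes spread over several orders of magnitude, by mean level from Polr2k to Polr2f in RNA polymerase II and from Med12l at 0 to Med25 in Mediator.

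Among the RNA polymerase II genes, the large catalytic subunit and its partner were far apart. Polr2a, which carries the C-terminal repeat domain and most of the active site, was at 74.1 TPM in replicate 1 and 53.1 TPM in replicate 2 (63.6 ± 14.8 TPM, SD, n = 2), from 14864 and 19019 counts. Polr2b, the subunit that closes the active site with it, was at 2.88 and 1.41 TPM, from 350 and 277 counts. The mean of Polr2a was thus 29.7-fold above that of Polr2b. The levels of these 2 genes did not overlap.

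The assembly pair Polr2c and Polr2j, on which the catalytic subunits gather, was higher in replicate 2. Polr2c was at 11.05 and 37.95 TPM, and Polr2j at 32.8 and 86.3 TPM. Polr2i, which encodes the jaw subunit, was nearly equal in the libraries, at 107.9 and 110.7 TPM. The stalk genes were low: Polr2d was at 5.20 and 4.36 TPM and Polr2g at 4.42 and 2.74 TPM. The stalk binds the emerging transcript and is joined reversibly in yeast.

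The 5 subunits that polymerase II shares with polymerases I and III ran from the top to the bottom of the range. Polr2f was at 146 and 463.9 TPM, Polr2e at 59.5 and 161 TPM, and Polr2l at 65.6 and 73.2 TPM. Polr2h was at 0.86 and 1.57 TPM, from 21 and 68 counts. Polr2k was at 0.07 and 0.29 TPM, from 1 and 7 counts, so its level rests on very few fragments. Polr2f and Polr2k differed 1694-fold in mean level, the widest gap among the polymerase genes. Polr2m, which encodes an associated factor and not a core subunit, was at 254 and 119 TPM.

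Of the 31 Mediator genes, 28 were at 1 TPM or more in each library and 5 at 50 TPM or more. The backbone gene Med14, on which the head, middle and tail are built, was at 9.41 and 4.32 TPM. It ranked 54 among the 84 genes by mean level, with every tail gene other than Med23 above it.

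The 9 head genes had a median of 13.7 TPM. The head makes the main contact with the polymerase. By mean level its highest genes were Med22, at 67.1 and 62.3 TPM, and Med28, at 69.5 and 47.7 TPM. Its lowest by mean level were Med6, at 3.28 and 1.10 TPM, and Med20, at 3.26 and 9.55 TPM. In replicate 2 alone, Med8 was highest, at 62.97 TPM, and Med17 and Med18 were below Med20. Med17, the central head subunit, was at 9.81 and 5.94 TPM.

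The 9 middle genes had a median of 23.5 TPM and covered a 977-fold range. Med7 was highest, at 393 and 252 TPM, followed by Med9, at 122 and 84.9 TPM. Med7 and Med21 form the hinge of the module, yet Med21 was at only 1.05 and 1.16 TPM. Med31 was lowest, at 0.32 and 0.34 TPM, from 10 and 18 counts. Med1, the nuclear receptor and GATA1 contact, was at 27.5 and 16.2 TPM, of which 2.85 and 4.37 TPM came from protein-coding transcripts. Med26, which brings elongation factors to the complex, was at 67.5 and 34.1 TPM.

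The 7 tail genes all reached 1 TPM in both libraries and had a median of 52.3 TPM. The tail is where many activators bind. By mean level Med25 was the highest of all 84 genes, at 852 and 391 TPM (622 ± 326 TPM, SD, n = 2), from 55752 and 45581 counts. Its mean stood above 99.0% of protein-coding genes, but in replicate 2 Polr2f and Taf10 were higher. Med24 followed by mean level at 139 and 87.6 TPM, while the lowest by mean were Med29, at 35.2 and 24.2 TPM, and Med23, at 2.36 and 7.97 TPM. Med27, at 15.9 and 111 TPM, was below Med29 in replicate 1 and above Med24 in replicate 2.

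In the kinase module, Med12 was at 44.4 and 41.1 TPM and its paralog Med12l had 0 counts in both libraries. A count of 0 allows up to 0.0162 TPM of Med12l in replicate 1 and 0.00907 TPM in replicate 2, counting 3 fragments as the limit. Med13, which docks the module on the core, was at 4.24 and 1.62 TPM, and Med13l at 6.13 and 14.0 TPM. Ccnc, the cyclin that activates the module's kinase, had 2 counts (0.02 TPM) in replicate 1 and 75 counts (0.70 TPM) in replicate 2. The kinase genes, which the naming rule does not cover, were at 81.8 and 57.3 TPM for Cdk8 and 11.3 and 7.71 TPM for Cdk19.

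Levels within TFIID were uneven too. Over TBP and the TAFs of TFIID, with the paralog Taf9b counted and the paralogs Taf4b and Taf7l left out, 13 of 15 genes reached 1 TPM in both libraries. Those that did not were Taf13 and Taf9b. Neither Taf4b nor Taf7l did. Tbp itself was at 5.79 and 2.34 TPM, from 180 and 141 counts. Taf1, the largest subunit, was at 3.64 and 2.72 TPM, and Taf7, which binds and restrains TAF1, was at 1.26 and 7.51 TPM. Taf2, a contact of the initiator sequence, was at 12.6 and 9.17 TPM. Taf3, which reads methylated histone at active promoters, was at 22.9 and 21.4 TPM. Taf5, a scaffold of the core, was at 21.9 and 7.69 TPM.

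Several TAFs pair through histone folds, and the genes of some partners lay far apart in level while others were close. Taf8 was at 29.0 and 27.6 TPM while its partner Taf10 was at 688 and 418 TPM (553 ± 190 TPM, SD, n = 2), exceeded in mean level among the 84 genes by Med25 alone. Over protein-coding transcripts Taf10 was at 4.41 and 2.49 TPM, below Taf8. Taf11 was at 43.1 and 40.6 TPM while its partner Taf13 was at 0.23 and 0.69 TPM, from 13 and 75 counts. Taf4 was at 46.7 and 28.7 TPM and its partner Taf12 at 1.99 and 30.6 TPM, apart in replicate 1 and close in replicate 2. Taf6 and Taf9 were close, at 22.2 and 38.5 TPM for Taf6 and 17.9 and 26.5 TPM for Taf9. Taf9 overlaps another gene on the same strand and its count is partly divided between them. Taf9b, the paralog of Taf9, was at 0.58 and 0.35 TPM.

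Of the TAFs outside TFIID, the SAGA coactivator subunits Taf5l (21.8 and 27.0 TPM) and Taf6l (61.8 and 57.8 TPM) differed by less than 1.5-fold between the libraries in scaled counts. The Taf6l row includes a transcript assigned to Tmem179b, at 8.48 and 19.0 TPM, and this enters the ratio of Taf6 to Taf6l. Of SL1, the TBP complex of polymerase I, Taf1c was at 90.9 and 55.1 TPM. The other SL1 genes were near or under 1 TPM: Taf1a was at 0.61 and 0.54 TPM, Taf1b at 0.91 and 1.09 TPM, and Taf1d at 0.84 and 1.86 TPM. Taf15, an RNA-binding protein of the FET family, was at 50.2 and 49.8 TPM. The TFIID paralogs left out of the count above were also low. Taf4b was at 1.16 and 0.68 TPM, and Taf7l had 0 counts in both libraries.

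Partners within a general factor also differed. In TFIIA, which steadies TBP on DNA, Gtf2a2 was at 76.3 and 178 TPM and Gtf2a1 at 11.2 and 11.2 TPM. The germ-cell paralog Gtf2a1l had 0 counts. Gtf2b, the single gene of TFIIB, was at 5.96 and 4.99 TPM. In TFIIE, Gtf2e2 was at 24.9 and 23.0 TPM and Gtf2e1 at 2.18 and 3.17 TPM. In TFIIF, Gtf2f1 was at 344 and 292 TPM and Gtf2f2 at 4.43 and 9.63 TPM, a 45.2-fold difference in mean level. TFIIF enters the promoter as a dimer of these gene products.

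The core of TFIIH, the factor that opens promoter DNA and repairs lesions, ranged over 40.5-fold. Gtf2h1 was highest, at 100.2 and 81.8 TPM, and Gtf2h4 followed at 23.2 and 20.1 TPM. Gtf2h3 was at 1.94 and 2.80 TPM and Gtf2h5 at 2.69 and 1.80 TPM. In the TFII-I family, Gtf2i was at 603 and 212 TPM, Gtf2ird2 at 5.84 and 5.79 TPM, and Gtf2ird1 at 0 and 3 counts. Gtf2i was the highest general factor by mean level over all transcripts, but in replicate 2 it was below Gtf2f1. Over protein-coding transcripts, which held 40.9% and 18.4% of the Gtf2i level, it was at 247 and 39.0 TPM. Its mean over these was 143 TPM and that of Gtf2f1 318 TPM. In replicate 1 most of the Gtf2i coding level lay on Gtf2i-212, of 950 bases, at 223 TPM and at 2.51 TPM in replicate 2.

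Related genes were compared as log2 ratios of TPM plus 0.1, and a pair was taken to differ when its ratios shared a sign and averaged more than 2 times their range. This held for 11 of 15 pairs. Where the lower paralog had 0 counts, the ratio was taken as a bound at 3 counts per library. Med12 was at least 2741-fold higher than Med12l over all transcripts, a bound that would be lower over its protein-coding transcripts, at 5.51 and 5.23 TPM. Gtf2a1 was at least 118-fold higher than Gtf2a1l, and Taf7 at least 14.1-fold higher than Taf7l. Tbp was at least 46.4-fold higher than Tbpl2, its germ-line relative. Taf7 over Taf7l no longer passed with a pseudocount of 1 TPM.

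Among pairs with counts on both sides, Taf4 exceeded Taf4b by 5.21 ± 0.0047 (log2, SD, n = 2) and Taf9 exceeded Taf9b by 5.31 ± 0.82. Polr2a exceeded Polr3a, its counterpart in polymerase III, by 4.01 ± 0.55, with Polr3a at 3.40 and 4.22 TPM. Polr2b and Polr3b, the latter at 3.73 and 4.27 TPM, did not pass, with log2 ratios of -0.36 and -1.53. Gtf2ird1 passed as the lower gene against both Gtf2i and Gtf2ird2, but with 0 and 3 counts its ratios depend on the value added and are not given. The ratio also failed the rule for Med13 and Med13l (-0.52 and -3.04), Taf5 and Taf5l (0.01 and -1.80), and Taf6 and Taf6l (-1.47 and -0.58).

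The results for Cdk8 over Cdk19 and for Tbp over Tbpl1 depended on which transcripts were summed. Cdk8 exceeded Cdk19 by 2.86 ± 0.02 over all transcripts, but was lower by a mean log2 ratio of -2.14 over protein-coding transcripts, which held 2.82% and 3.14% of the Cdk8 level. Tbp lay below Tbpl1 with a mean log2 ratio of -5.02 ± 0.74 over all transcripts, since Tbpl1 stood at 133 and 113 TPM. Over protein-coding transcripts, which held 1.82% and 2.81% of the Tbpl1 level, that mean ratio was 0.38. The ratio was positive in replicate 1 and negative in replicate 2, so over these transcripts the pair did not pass the rule.

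**Figure D2:**
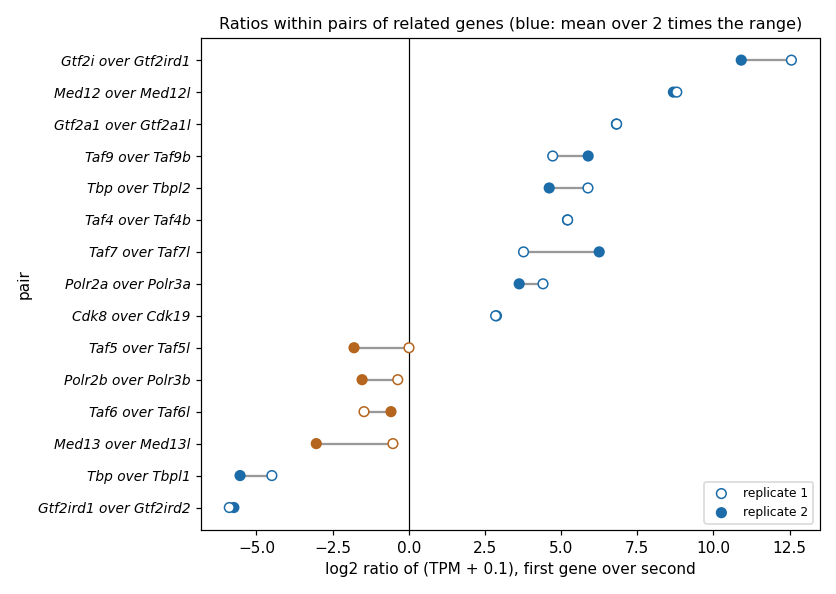
Points are log2 ratios of TPM plus 0.1 of the first gene over the second, for 15 pairs on the vertical axis, in replicate 1 (open) and replicate 2 (filled). Blue marks the 11 pairs whose mean exceeded 2 times the range and brown the 4 that did not; where the second gene had 0 counts the position depends on the 0.1 added.

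Several of the highest genes had most of their level on transcripts that are not annotated as protein-coding. Of the 84 genes, 58 had a mean of at least 5 TPM, and 57 of these had annotated transcript types. In 7 of the 57, under 50% of the level lay on protein-coding transcripts in both libraries, against a background of 17.6% of genes at that level. They were Taf10, Gtf2h2, Med12, Med1, Med27, Med7 and Gtf2i. A further 4 fell under 50% in replicate 1 only, and 40 had at least 90% on protein-coding transcripts in both libraries. Taf4 could not be typed because its leading transcript is not in the annotation used for types.

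Taf10 was the extreme case. Protein-coding transcripts held 0.641% and 0.595% of its level, or 4.41 and 2.49 TPM. The transcript Taf10-201, annotated as retaining an intron, held 97.0% and 95.4%, or 667 and 399 TPM. It is 667 bases long in the deposited table, whereas the coding model Taf10-203 is 4281 bases long with an exon of 3671 bases. TPM divides by length, so the length assigned to a fragment's transcript enters these values. Whether fragments covered the intron itself cannot be read from these tables.

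The introns that such transcripts keep show what the annotation calls retained, and 3 are given here with the intron in capitals and 12 bases of exon on each side in lower case. All lie between coding exons and all begin with GT and end with AG. The Taf10-201 intron spans 87 bases at chr7:105743341-105743427, the Taf1c-204 intron 77 bases at chr8:119599504-119599580, and an intron of Polr2e-202 72 bases at chr10:80036843-80036914. All are on the minus strand of mm10 and are written 5′ to 3′ from the transcripts of the GENCODE annotation.
Taf10-201 intron: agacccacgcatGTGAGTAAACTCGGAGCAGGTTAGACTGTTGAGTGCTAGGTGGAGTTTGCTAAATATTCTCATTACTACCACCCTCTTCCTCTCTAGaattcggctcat
Taf1c-204 intron: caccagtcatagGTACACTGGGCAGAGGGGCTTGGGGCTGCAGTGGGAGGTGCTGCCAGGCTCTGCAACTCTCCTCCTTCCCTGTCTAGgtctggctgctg
Polr2e-202 intron: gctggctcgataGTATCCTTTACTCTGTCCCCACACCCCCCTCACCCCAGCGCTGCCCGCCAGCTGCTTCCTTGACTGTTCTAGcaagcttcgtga
Taf1c-204 held 48.6% of the Taf1c level in replicate 1 and 19.7% in replicate 2, and Polr2e-202 held 30.2% and 30.7% of the Polr2e level.

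In other genes a short transcript without a coding annotation carried the level. In Med7, a processed transcript of 445 bases held 80.7% and 65.7% of the Med7 level. Med12-206, of 448 bases, held 26.2 and 22.0 TPM from 239.9 and 350.3 counts. The coding Med12-204, of 6940 bases, held 5.51 and 5.23 TPM from 1139.6 and 1931 counts. A retained-intron transcript of Med12, of 3273 bases, held 11.8 and 13.7 TPM from 1120.5 and 2324 counts, more counts than the coding transcript in replicate 2. Med27-204, of 581 bases, was at 9.65 TPM in replicate 1 and 108 TPM in replicate 2, while the coding Med27-201 was at 5.90 and 3.12 TPM.

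The leading transcript differed between the libraries in 10 of the 58 genes with a mean of at least 5 TPM. The share over all genes was not computed, so this count has no background. In Polr2m, Polr2m-203, annotated for nonsense-mediated decay, held 66.0% in replicate 1 and 7.23% in replicate 2, and the coding Polr2m-201 held 34.0% and 92.8%. In Taf12, the coding Taf12-201 of 3787 bases held 100% of the level in replicate 1 and 8.96% in replicate 2, where the coding Taf12-202 of 777 bases held 90.3%. Taf12 was 4.06-fold higher in replicate 2 in scaled counts and 15.4-fold higher in TPM. A TPM comparison of such genes thus includes the change in transcript length.

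**Figure D3:**
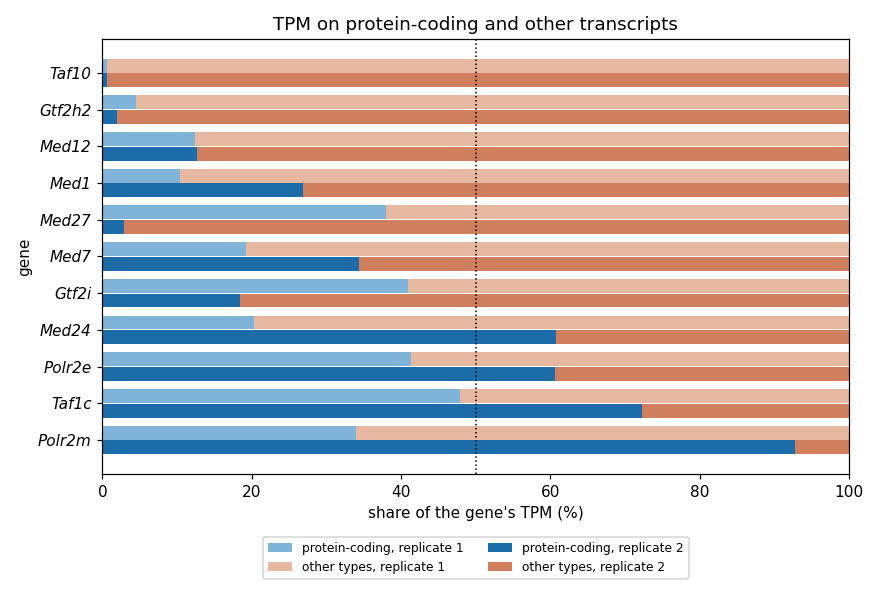
Bars show the share of each gene's TPM, in percent, on protein-coding transcripts (blue) and on all other annotated types (orange) for the 11 genes with under 50% coding in a library. Upper, paler bars are replicate 1 and lower bars replicate 2; Taf10 is almost wholly on other types, and Polr2m moves from 34.0% to 92.8% coding.

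Counts of each gene were then compared between the libraries, scaled by TMM, in a two-sided exact binomial test with Benjamini-Hochberg adjustment over all 11230 genes with at least 10 counts. Calls needed a fold of 1.5 or more together with an adjusted p below 0.05. This compares 2 libraries of 1 condition and covers counting error only. Of the 79 members tested, 39 were called, where 41.4% of all genes tested were. In replicate 2, 26 were higher, against a background of 24.3%, and in replicate 1, 13 were higher, against 17.1%. With the fold taken from TPM instead of scaled counts, 22 were higher in replicate 2 and 18 in replicate 1, where 43.9% of all genes were called. The members' shares were not tested against these backgrounds. The summed erythroid markers were 84246.7 TPM in replicate 2 against 32922.5 TPM in replicate 1, a sum carried by Hbb-bs (49651.5 and 13158 TPM) and Hba-a1 (21029 and 7118 TPM). Of the 8 markers, 5 were called higher in replicate 2, among them Gata1, whose level may include the introduced fusion. Klf1 was called higher in replicate 1 (754 TPM in replicate 2 and 1422 in replicate 1), and Hba-a2 and Epor were not called. The part of these markers in the members' differences was not tested. In such bulk RNA, fewer cells of a type and less RNA per cell cannot be told apart.

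By complex, the calls comprised 7 of 12 RNA polymerase II genes tested, 16 of 30 Mediator genes, 11 of 23 TFIID and TAF genes and 5 of 14 general factors. The largest fold toward replicate 2 was that of Ccnc, 18.3-fold with a 95% counting interval of 6.08 to 191 because replicate 1 had 2 counts. Taf7 was 6.42-fold higher in replicate 2 (121 and 1286 counts, interval 5.34 to 7.83). Med27 was 4.85-fold higher (335 and 2685 counts), although its coding transcript Med27-201 had 199 and 186 counts. Med4 was 4.25-fold higher (116 and 817 counts) and Med23 4.19-fold (219 and 1516 counts). These genes have roles in the kinase module, TFIID, and the middle and tail of Mediator.

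Toward replicate 1, Taf5 was 2.63-fold higher (2070 and 1297 counts, interval 2.45 to 2.82). Med6 was 2.17-fold higher (58 and 44 counts), Tbp 2.10-fold (180 and 141 counts), Polr2b 2.08-fold (350 and 277 counts) and Med25 2.02-fold (55752 and 45581 counts). The folds are of counts scaled to library size, so a similar raw count in the deeper library is a lower level. Polr2g (1.51-fold, adjusted p = 0.00562 in the exact binomial test), Med17 (1.53-fold), Taf10 (1.55-fold) and Taf4b (1.56-fold) were no longer called when total counts replaced TMM. Med24 went in opposite directions by measure: its scaled counts were 1.59-fold higher in replicate 2 and its TPM 1.58-fold higher in replicate 1.

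Some partner subunits moved the same way between the libraries and others did not. Polr2a and Polr2b were both lower in replicate 2, at 0.776-fold and 0.480-fold in scaled counts, while the assembly genes Polr2c and Polr2j were 3.70-fold and 2.84-fold higher. Taf6 and Taf9 were both higher in replicate 2, at 1.87-fold and 1.59-fold. In TFIIF, Gtf2f2 was 2.33-fold higher in replicate 2 and Gtf2f1 was at 0.914-fold. The median log2 ratio, of TPM plus 1, of replicate 2 over replicate 1 was -0.11 over the 73 members with a mean of at least 1 TPM and -0.09 over all such protein-coding genes.

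**Figure D4:**
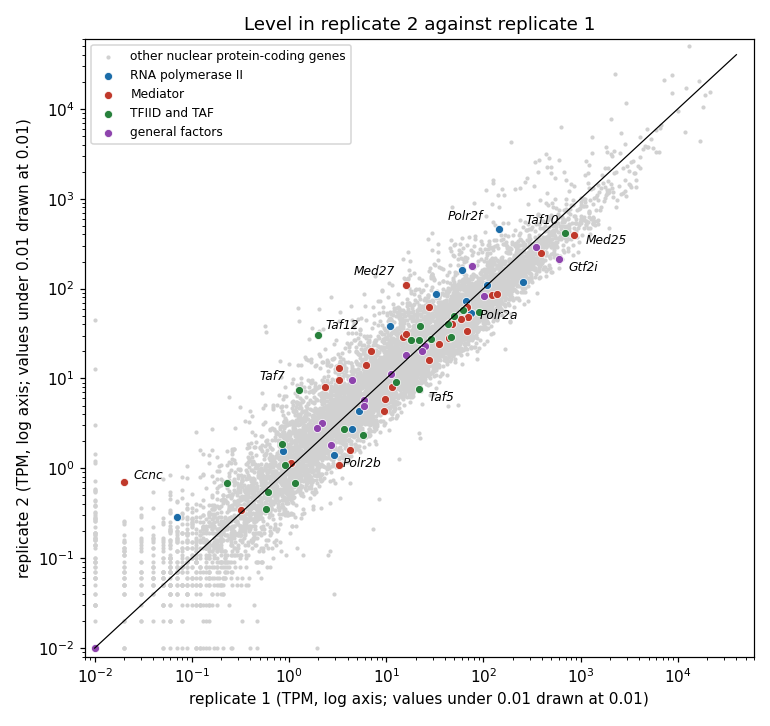
Each point is a gene, with TPM in replicate 1 on the horizontal and in replicate 2 on the vertical axis, both on log scales; grey points are other nuclear protein-coding genes and the line marks equal levels. Ccnc, Taf12, Taf7 and Med27 lie far above the line, and Taf5, Gtf2i and Med25 below it.

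The level of a member went with the GC content of its most abundant transcript. Across 80 members with counts and a known sequence, Spearman's rank correlation was 0.67 and Pearson's r with the log2 level was 0.60. Over 7976 protein-coding genes at 1 TPM or more in both libraries these were 0.39 and 0.38. The members were not cut at 1 TPM, so the sets are unlike and the strength of their correlations cannot be compared. Genes within a library are not independent, so these values are descriptions, and the points share libraries and depth. Of the 16 members under 45% GC, 1 reached 50 TPM in both libraries (Gtf2a2) and the median was 2.56 TPM. Of the 22 members at 55% GC or more, 12 reached 50 TPM and the median was 62.2 TPM. Among all nuclear protein-coding genes the share at 50 TPM rose too, from 1.45% under 45% GC to 20.3% at 55% or more. Polr2k and Ccnc, at 38.9% and 35.5% GC, were among the lowest genes with counts, and Med25 and Taf10, at 62.0% and 63.9%, were the highest by mean level. Among the exceptions, Gtf2ird1, at 56.5% GC, was the lowest member with any count, and Polr2h and Med31, at 52.6% and 53.5% GC, were also low. The transcript giving the GC value was chosen by its level, so GC content and level are not independent. For Med7 it was a non-coding transcript at 61.3% GC, while the leading coding transcript had 50.1%, below the 55% class. For Med24 these values were 59.2% and 55.5%. For Gtf2i the chosen transcript had 59.3%, against 58% for the leading coding transcript of replicate 1 and 52.9% for that of replicate 2. The correlation with the GC content of coding transcripts was not tested.

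**Figure D5:**
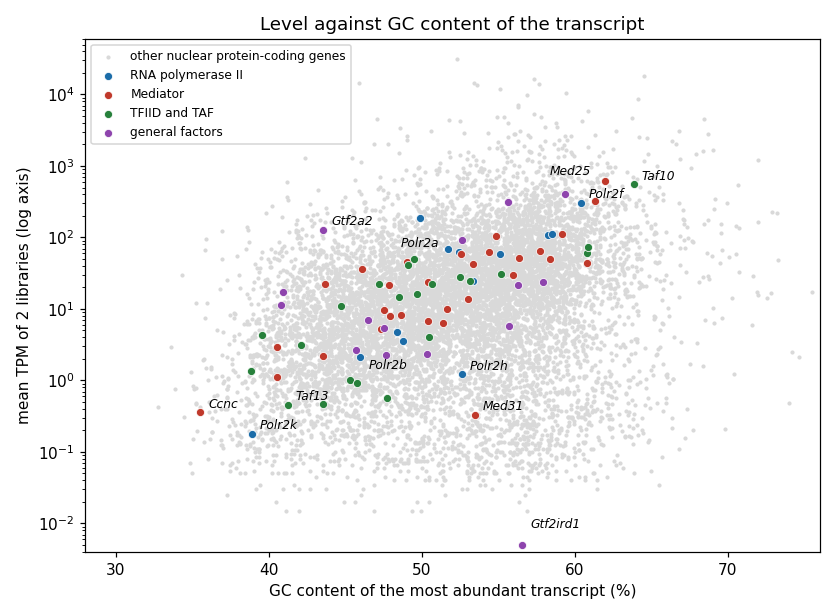
The horizontal axis is the GC content (%) of each gene's most abundant transcript and the vertical axis its mean TPM over 2 libraries on a log scale; coloured points are the members by complex and grey points other nuclear protein-coding genes. Of the 16 members under 45% GC, Gtf2a2 alone reached 50 TPM in both libraries, and of the 22 at 55% or more, 12 did. The shares over all nuclear protein-coding genes in these classes were 1.45% and 20.3%.

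Promoters of the members held as many CG dinucleotides, by their median, as those of other expressed genes. RefSeq promoter windows (GRCm38.p6, 250 bases before to 50 after a start) were found for 73 of the 84 genes, in 88 windows, with a median of 22 CG dinucleotides. The median was 7 over all 32851 windows and 22 over the 8231 windows of protein-coding genes at 1 TPM or more in both libraries. Motifs were searched as exact letters on both strands. CCGGAAG, a core bound by ETS factors that contains CGGAAG and GGAAG, both also searched, was in 30.7% of member windows, 21.7% of windows of those expressed genes and 8.86% of all windows. CACGTG, an E-box, was in 18.2%, 11.0% and 7.15%. CCGCCC, a GC box, was in 64.8%, 67.1% and 35.7%. TATAAA, the TATA box that TBP binds, was in 13.6%, 5.78% and 13.6%. CCAAT was in 34.1%, 39.0% and 37.4%, and the GATA-type AGATAA in 6.82%, 5.78% and 11.2%. The windows of 12 members that were under 1 TPM in a library held CCGGAAG in 4 of 15 cases. These shares describe letters in the windows, not bound factors.

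The upstream parts of 4 windows are printed because they contrast a high gene of the polymerase and of TFIIF with a TFIIA pair of which 1 gene had no counts. Each is the 250 bases before the start, 5′ to 3′ on the strand of the gene, with CCGGAAG (or its complement CTTCCGG) and TATAAA in capitals. They lie at chr11:69758634-69758883 (Polr2a, minus strand), chr17:57011289-57011538 (Gtf2f1, minus strand), chr12:91590488-91590737 (Gtf2a1, minus strand) and chr17:88668410-88668659 (Gtf2a1l, plus strand).
Polr2a: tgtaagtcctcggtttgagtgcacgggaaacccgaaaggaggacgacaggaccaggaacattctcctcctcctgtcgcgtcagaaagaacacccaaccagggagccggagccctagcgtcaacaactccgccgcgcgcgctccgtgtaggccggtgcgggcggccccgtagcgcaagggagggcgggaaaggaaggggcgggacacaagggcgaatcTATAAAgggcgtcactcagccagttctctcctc
Gtf2f1: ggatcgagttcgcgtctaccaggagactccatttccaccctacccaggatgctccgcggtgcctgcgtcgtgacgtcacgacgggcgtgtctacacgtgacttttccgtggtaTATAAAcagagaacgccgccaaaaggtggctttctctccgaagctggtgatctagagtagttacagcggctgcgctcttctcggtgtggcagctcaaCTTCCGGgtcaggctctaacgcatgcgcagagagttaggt
Gtf2a1: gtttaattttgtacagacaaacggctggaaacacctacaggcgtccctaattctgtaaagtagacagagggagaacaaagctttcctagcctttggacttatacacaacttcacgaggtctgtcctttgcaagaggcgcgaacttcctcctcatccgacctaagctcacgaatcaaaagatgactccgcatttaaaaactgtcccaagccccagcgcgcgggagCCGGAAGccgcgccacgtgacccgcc
Gtf2a1l: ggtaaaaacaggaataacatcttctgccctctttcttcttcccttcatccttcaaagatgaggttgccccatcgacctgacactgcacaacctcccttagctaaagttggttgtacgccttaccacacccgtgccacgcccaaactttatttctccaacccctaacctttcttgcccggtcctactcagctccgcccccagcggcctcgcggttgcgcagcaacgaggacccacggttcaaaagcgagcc
Polr2a held TATAAA, Gtf2f1 held both motifs, Gtf2a1 held CCGGAAG, and Gtf2a1l held neither in these bases. The Gtf2a1l stretch had 13 CG dinucleotides and that of Gtf2a1 16. Gtf2a1 has another start, whose whole window held neither motif and 13 CG dinucleotides, against 18 in the whole Gtf2a1l window. For the pair Med12 and Med12l, whose stretches are not printed, both held neither motif. The Med12 stretch had 22 CG dinucleotides and that of Med12l, which had 0 counts, 26.

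Genes that work beside the members were taken from separate lists of 67 genes, of which 63 were at 1 TPM or more in each library and 16 at 50 TPM or more. The highest and lowest gene of each list is given by mean level. All 24 pausing and elongation genes reached 1 TPM, from Ccnt1, the cyclin of the pause-release kinase, at 4.38 and 1.65 TPM, to Nelfe, a pausing factor, at 187 and 283 TPM. The 5 TFIIH enzymes ran from Cdk7, the kinase of the C-terminal domain, at 0.64 and 1.24 TPM to Ercc2, a helicase, at 50.9 and 43.6 TPM. Of 14 genes of polymerases I and III, 13 reached 1 TPM, between Polr3g (1.72 and 1.24 TPM) and Polr1d (108 and 112 TPM). SAGA genes lay between Supt20 (2.27 and 0.79 TPM) and Tada3 (72.9 and 52.4 TPM). Assembly factors and phosphatases of polymerase II lay between Rpap2 (1.15 and 3.31 TPM) and Ctdsp1 (366 and 185 TPM). Among TBP relatives and regulators, Drap1 of the NC2 repressor was highest, at 206 and 176 TPM, and Tbpl2 had 0 counts. Between the libraries 30 of 66 were called, 22 higher in replicate 2 and 8 in replicate 1, against backgrounds of 41.4%, 24.3% and 17.1% of all genes tested.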

How the data were processed

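Estimated (expected) counts, TPM, FPKM and isoform percentages per gene and transcript were deposited by the authors, with column names of RSEM per the file headers. The deposited expected counts divide ambiguous fragments among transcripts. The deposited TPM and FPKM values divide counts by effective length, and the deposited isoform percentages (percent) give how a gene's TPM divides over its transcripts. The build mm10 and GENCODE M4 are per the labels and the submitters' processing notes. For the aligner, the quantifier's version and strand in counting, nothing is given in the sources used here. Of the members, 42 overlap a gene on the opposite strand and 18 one on the same strand. Symbols and transcript types came from GENCODE M21, which matched 42462 of 43346 gene rows. Rows without a gene held 5.21e-06% of the counts of replicate 1 and 0% of replicate 2.

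Counts were rounded and scaled with TMM factors over all gene rows (edgeR 4.0.16, R 4.3.3), and tested with an exact binomial test (scipy 1.17.1), since 1 group of 2 libraries leaves no residual degrees of freedom for edgeR's model. Simulated libraries with 11312 genes were drawn with counting error only, which is what the test assumes. They gave calls for 84 of 100 genes changed 2-fold, 96 of 100 changed 4-fold and 3 of 11113 unchanged. The simulation holds no other spread between libraries, so it does not show how reliable the calls are here. Intervals and limits cover counting error only. Fold changes use 0.5 added counts. The members and lists were chosen with earlier results of these data known. Values in each library are named for every polymerase subunit, the 2 highest and lowest genes of each role, members under 1 TPM, pairs, the 5 largest folds each way and the extremes of each related list; other members named were chosen after their values were seen. Of 12 motifs searched, 6 are described; the motifs and printed sequences were chosen after values were seen. Alternatives covered units, thresholds, pseudocounts, scaling, low-count filters, transcript types and leaving out each library, with DESeq2 1.42.0 size factors as 1 of them.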

Additional observations from a re-analysis of the deposited data

How the results depend on the processing

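No paired analysis was possible because all libraries belong to 1 group. The number of members at 50 TPM in both libraries was 8 in place of 18 at a threshold of 100 TPM. With protein-coding transcripts only, the median of mean TPM was 11.0 over the members, 10.1 for Mediator, 11.4 for TFIID and the TAFs and 6.34 for the general factors. Rescaled to protein-coding genes without globins, it was 17.7 for TFIID and the TAFs and 10.4 for the general factors. Leaving out either library gave 15.4 to 20.3 TPM over the members, 15.9 to 24.2 for Mediator, 32.8 to 53.1 for RNA polymerase II, 15.2 to 15.3 for TFIID and the TAFs and 8.59 to 10.4 for the general factors. The polymerase median of mean levels, 59.5 TPM, lay outside its range.

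At a fold of at least 2, 26 of 79 members were called between the libraries, where 21.8% of all genes tested were. Of these 26, 6 were higher in replicate 1. The main setting gave 39 and 13, where 41.4% of all genes were called. TMM factors over genes with at least 10 counts, chosen after seeing the data, gave 40 members, of which 14 were higher in replicate 1. That setting called 41.5% of all genes. The median log2 ratio of the libraries was 0.039 in scaled counts not divided by length and -0.11 in TPM, so its sign depended on the unit. Cdk8 over Cdk19 reversed with protein-coding transcripts only (-2.14). The mean for Tbp over Tbpl1 changed sign (0.38), but the 2 libraries had opposite signs there and the pair did not pass the rule. Single members moved beyond 1 SD of the 2 libraries in 15 of 84 cases with protein-coding transcripts only and in 22 of 84 after rescaling. This SD is wide where the libraries differ, so the counts do not measure stability. Med27 did not count as moved, at 63.5 TPM over all transcripts and 4.6 TPM over protein-coding ones. Depth limits Polr2k, Med31, Ccnc and Gtf2ird1 most, and no call could be made for the 5 members under 10 counts.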

Other observations

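Some rows hold more than the gene they are named for. The deposited Taf6l row includes the transcript Tmem179b-201, which the newer annotation gives to a neighbouring gene and which held 13.7% and 33.0% of the row's TPM. The antisense gene Med9os had 7 and 46 counts, and the pseudogene Polr2k-ps had 0 in both libraries. Of the 84 members, 73 had a posterior SD of 0 on their count in both libraries, and 5 had one over 1: Med20, Med12, Polr2c, Polr2l and Taf9.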
